A study of Mus musculus with 13 samples.

Results

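Genes whose products fill the granules or the cytosol of neutrophils were followed across whole mouse livers, namely S100a8, S100a9, Prtn3, Elane, Mpo, Ctsg, Ngp, Camp, Ltf and Retnlg. They are 10 of the 22048 genes in the deposited table and were listed by symbol. The list was chosen by its read counts in the 3 groups described here, which were already known, so their own group differences are given as a description without p-values. The study compared 13 whole livers: 6 control livers not depleted of hepatic stellate cells (replicates 1, 2 and 6 male, 3, 4 and 5 female), 4 livers depleted of these cells (replicate 3 male, the others female) and 3 non-depleted livers at 72 h after partial hepatectomy (replicates 1 and 2 male, 3 female). Hepatic stellate cells surround the sinusoids and hold the liver's vitamin A, and partial hepatectomy takes out liver lobes so that the remnant regrows. Strain, age, alleles, the means of depletion and any sham operation are not given in the sources used here, and nothing there ties libraries to litters or days. The labels do not state that each library is a separate animal, so p-values measure the spread between these samples.

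Neutrophils are made in the bone marrow in a fixed order. Promyelocytes fill azurophil (primary) granules with myeloperoxidase and the serine proteases proteinase 3, elastase and cathepsin G. Myelocytes then make specific (secondary) granules with lactoferrin, cathelicidin and neutrophilic granule protein. Calprotectin, the S100A8 and S100A9 heterodimer, is the most plentiful protein of the mature cell's cytosol, and the azurophil transcripts have mostly been lost by the time a cell enters the blood. In a whole liver these transcripts can come from circulating, sinusoidal or tissue neutrophils, and a few can be made by other cells. More cells of a type and more RNA per cell cannot be told apart in such bulk samples.

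The upstream sequences of 6 genes are shown because they carry a motif shared among azurophil genes or one shared among other members of the set. RefSeq promoter windows (GRCm38.p6, 250 bases before to 50 after the transcript start) were found for all 10 genes. Each sequence below runs 5′ to 3′ on the gene's strand from the window's first base to the last base before any annotated exon. Capitals mark AGGAAGT, the core bound by ETS factors such as the product of Spi1, or TTGCNNAA, a C/EBP-like sequence, each on either strand. These motifs were picked after the windows had been seen.
Prtn3, chr10:79879417-79879613, plus strand: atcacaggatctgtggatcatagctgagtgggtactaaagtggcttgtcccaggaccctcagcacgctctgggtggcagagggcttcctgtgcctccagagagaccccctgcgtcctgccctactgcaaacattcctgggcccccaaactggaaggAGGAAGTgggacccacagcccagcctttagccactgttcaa
Elane, chr10:79886062-79886246, plus strand: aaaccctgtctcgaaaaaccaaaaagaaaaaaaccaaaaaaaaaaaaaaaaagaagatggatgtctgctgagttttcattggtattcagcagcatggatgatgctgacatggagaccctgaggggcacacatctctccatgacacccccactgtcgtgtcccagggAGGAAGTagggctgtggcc
Mpo, chr11:87793534-87793580, plus strand: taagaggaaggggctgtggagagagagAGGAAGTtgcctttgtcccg
S100a9, chr3:90695722-90695971, minus strand: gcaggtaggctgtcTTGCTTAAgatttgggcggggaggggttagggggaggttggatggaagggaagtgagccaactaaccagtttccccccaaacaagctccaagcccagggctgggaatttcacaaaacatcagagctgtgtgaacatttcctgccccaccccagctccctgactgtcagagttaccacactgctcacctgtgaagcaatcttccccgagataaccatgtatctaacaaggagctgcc
Ngp, chr9:110419558-110419746, plus strand: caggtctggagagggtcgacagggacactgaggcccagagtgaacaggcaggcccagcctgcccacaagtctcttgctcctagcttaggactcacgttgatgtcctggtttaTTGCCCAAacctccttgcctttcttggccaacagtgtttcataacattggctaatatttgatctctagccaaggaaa
Ltf, chr9:111019042-111019270, plus strand: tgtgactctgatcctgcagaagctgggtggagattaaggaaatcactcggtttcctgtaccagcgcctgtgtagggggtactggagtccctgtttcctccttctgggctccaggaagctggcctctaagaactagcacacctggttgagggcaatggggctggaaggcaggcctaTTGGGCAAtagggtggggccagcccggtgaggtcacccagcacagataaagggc

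AGGAAGT was present in the 300-base window of 5 of the 10 genes, which were the azurophil genes Prtn3, Elane, Mpo and Ctsg and, on the other strand, S100a8. Over all 32851 windows of the same length it was present in 9.35%. In Prtn3 and Elane it lay at nearly the same place, at bases -94 to -88 and -84 to -78 from the transcript start. TTGCNNAA was present in 4 windows, those of S100a9, Ngp, Ltf and Retnlg, against 10.8% of all windows. No gene had both and Camp had neither, and the motifs did not overlap. The other 2 motifs scanned were TTCNNNGAA, a STAT-like sequence found in 1 of the 10 windows (Ctsg; 8.3% of all windows), and TATAAA, found in 3 (S100a8, S100a9 and Ctsg; 13.6%). A match describes letters in these windows and not a bound site.

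**Figure D1:**
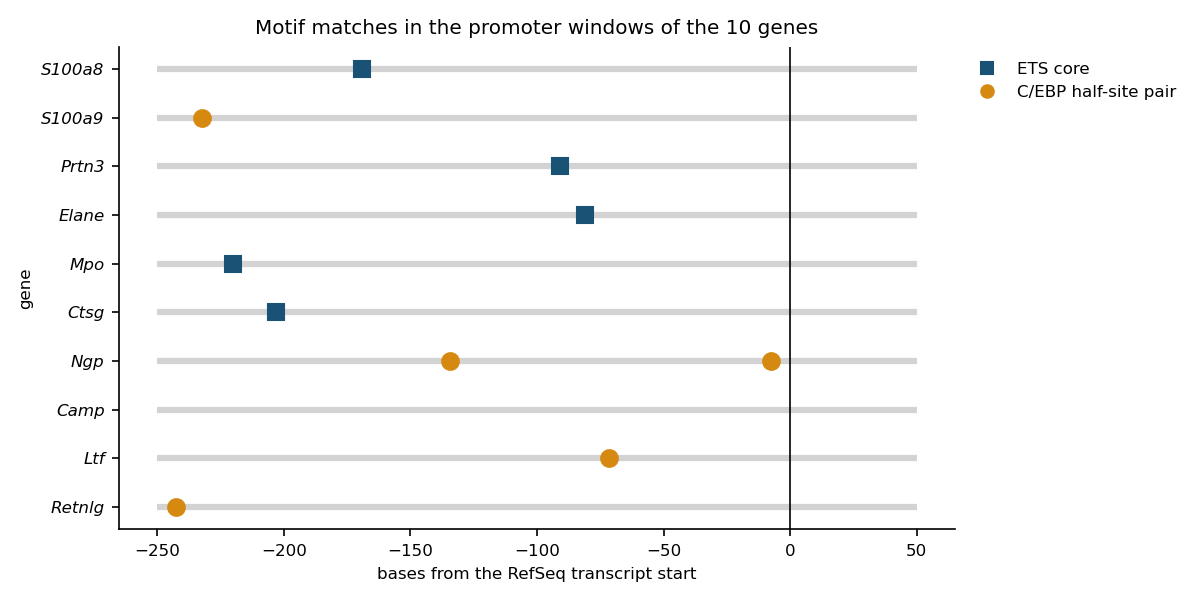
Position of AGGAAGT (squares) and TTGCNNAA (circles) in the promoter windows of the 10 genes, in bases from the RefSeq transcript start (x axis), 1 grey bar per gene. The squares sit in the 4 azurophil genes and S100a8, and the circles in S100a9, Ngp, Ltf and Retnlg.

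Library totals ran from 35360991 to 51008737 counts, at which 3 counts correspond to 0.0524 to 0.0900 CPM (read counts scaled to library size with TMM factors). Intervals and floors cover counting error only. Summed stellate cell markers (8 genes) were 269 to 717 CPM in controls, 290 to 561 CPM after hepatectomy and 14.2 to 18.0 CPM in depleted replicates 1 to 3, but 58.6 CPM in depleted replicate 4. That library, labelled female, also held Y-linked transcripts at 1.63 CPM against 119 to 178 CPM in control and hepatectomised males. The levels of the 10 genes in depleted livers are therefore also given without it, as are the fold changes of the 8 that could be fitted. The pooled ratios of Mpo and Ctsg are given with it only. Of all 13831 genes that passed the low-count filter, 33.9% differed between depleted and control livers, 8.42% between hepatectomised and control livers and 23.4% between depleted and hepatectomised livers, by edgeR's quasi-likelihood test at an adjusted p below 0.05 (called genes, below). Leaving out depleted replicate 3, the sole depleted male, lowered the first count from 4692 to 2960 genes and the third from 3236 to 1709, and leaving out hepatectomised replicate 2 lowered the second from 1164 to 483. With the replicate number as a block the second count was 632. Scaling by library size alone moved the all-gene median after hepatectomy from -0.02 to -0.24 on the log2 scale and turned the split of called genes from 838 higher and 326 lower to 626 and 1566. It turned the split from 2614 and 2078 to 2884 and 1471 for depleted against control livers, and from 1837 and 1399 to 3102 and 610 for depleted against hepatectomised livers. Both comparisons with control share the same 6 control livers.

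Of the 10 genes, 8 passed the filter and Mpo and Ctsg did not. All 8 were called higher in depleted than in control livers, where 18.9% of all tested genes were, and 6 of 8 after hepatectomy, where 6.06% of all tested genes were. The CPM ranges of all 8 lay above the controls in depleted livers (16.5% of all tested genes) and those of 5 after hepatectomy (7.41%). Between depleted and hepatectomised livers, 6 of the 8 were called higher in depleted livers (13.3% of all tested genes) and 6 had ranges above (18.1%). The genes were chosen with these differences known, so the counts describe them and support nothing further.

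The label was checked with 8 neutrophil markers that are not among the 10 genes. Ly6g, the antigen used to define mouse neutrophils, had 0 counts in all 6 controls. It stood at 1.58 CPM on average in depleted livers, at least 127-fold above the floor of 3 counts over the control group, and at 0.115 CPM after hepatectomy, at least 8.77-fold above it. The call after hepatectomy (edgeR adjusted p = 0.0289) was lost without hepatectomised replicate 1 (0.0702) or 2 (0.0684), without control replicate 1 (0.0535) or 2 (0.0519) and with the replicate number as a block (0.0957). Itgb2l, a neutrophil integrin subunit, likewise had 0 counts in controls and a mean of 1.54 CPM in depleted livers. The 8 markers summed to 0.540 to 5.19 CPM in controls, 33.6 to 91.1 CPM in depleted livers and 5.84 to 8.81 CPM after hepatectomy, without overlap between the groups. Of the 6 markers that could be tested, 6 were called higher in depleted livers and 3 after hepatectomy.

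Calprotectin transcripts were the most abundant of the set in depleted livers. S100a8 (chromosome 3, 90668978 to 90670035, mm10, plus strand), the smaller calprotectin subunit, had 0.0900 to 0.470 CPM in the 6 controls (median 0.219), 78.1, 59.0, 75.8 and 31.3 CPM in depleted replicates 1 to 4, and 8.94, 5.17 and 3.99 CPM in hepatectomised replicates 1 to 3. The 3 groups did not overlap. Every hepatectomised liver lay above every control and below every depleted liver. The log2 fold change was 8.03 ± 0.42 (SE) for depleted and 4.51 ± 0.41 (SE) for hepatectomised livers against control.

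S100a9 (chromosome 3, 90692632 to 90695721, minus strand), the larger subunit, followed S100a8 in each group. Controls had 0.180 to 0.944 CPM (median 0.487), depleted livers 148, 111, 140 and 65.3 CPM, and hepatectomised livers 15.8, 13.9 and 7.88 CPM. Again the 3 groups stood apart in the same order. The log2 fold changes against control were 7.81 ± 0.45 and 4.51 ± 0.44 (SE). S100a9 reads per S100a8 read were 1.93 ± 0.108 (SD, n = 4) after depletion and 2.14 ± 0.484 (SD, n = 3) after hepatectomy. The depleted range, 1.85 to 2.09, lay within the hepatectomised one, 1.77 to 2.69.

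Retnlg (chromosome 16, 48872608 to 48874498), which encodes a secreted resistin-like protein of neutrophils, went with calprotectin. Its CPM was 0 to 0.378 in controls (median 0.128), 36.5, 32.2, 37.6 and 8.84 in depleted livers and 3.50, 4.77 and 2.05 in hepatectomised livers. The groups did not overlap, and depleted replicate 4 was the lowest of its group, as it was for both calprotectin genes. Retnlg reads per S100a8 read were 0.448 ± 0.115 (SD, n = 4) after depletion and 0.609 ± 0.279 (SD, n = 3) after hepatectomy, overlapping ranges.

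**Figure D2:**
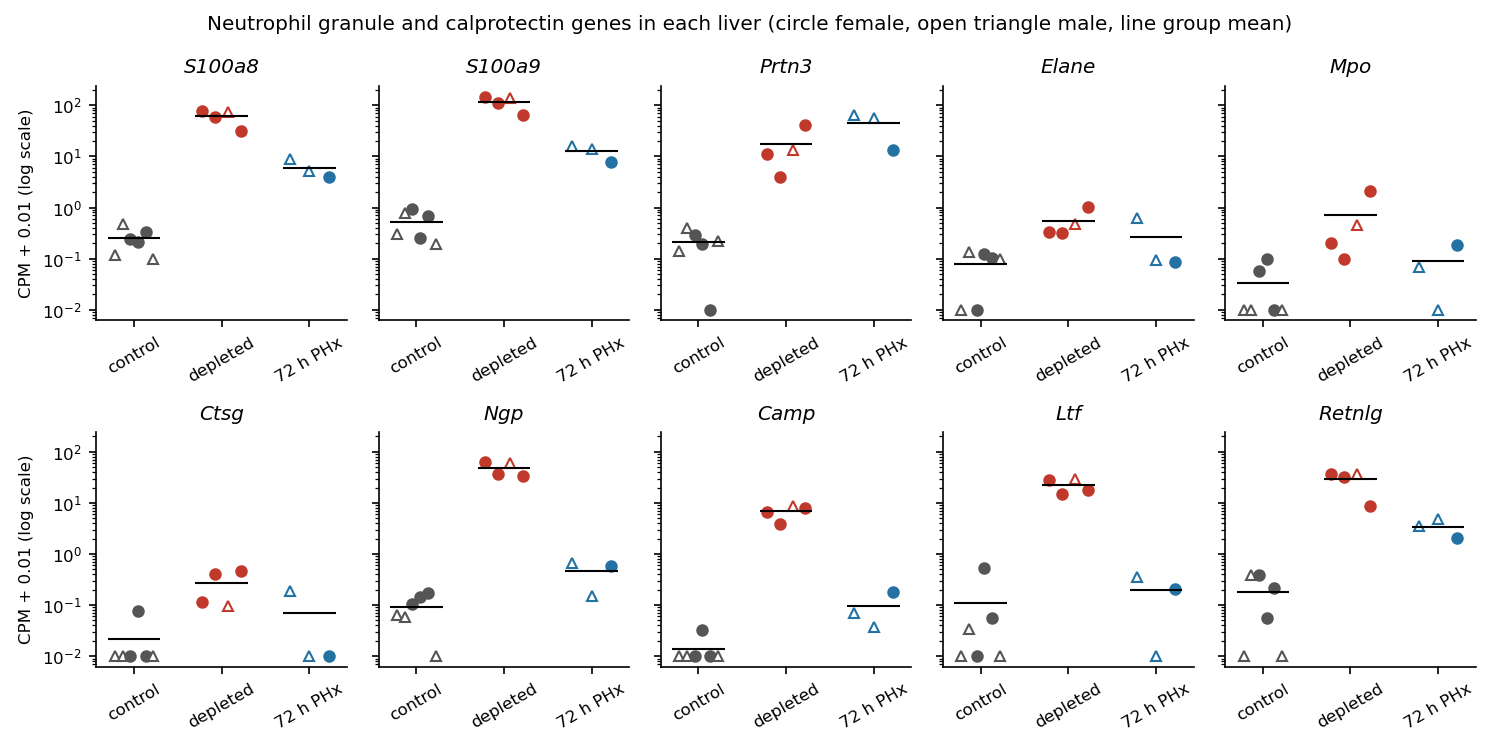
CPM of each of the 10 genes in each of the 13 livers (y axis, log scale, with 0.01 added so that 0 can be drawn; 72 h PHx is the hepatectomised group), circles for females, open triangles for males and a line at the group mean. Calprotectin and Retnlg form 3 separate levels, Ngp, Camp and Ltf are far higher in depleted livers than in both other groups, and Prtn3 values after hepatectomy overlap those in depleted livers.

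The specific granule genes separated depleted livers from both other groups. Ngp (chromosome 9, 110419747 to 110423012), which encodes a cathelicidin-related granule protein, had 0 to 0.164 CPM in controls (median 0.0740), 62.9, 36.3, 61.6 and 33.9 CPM in depleted livers and 0.647, 0.140 and 0.574 CPM after hepatectomy. The lowest depleted liver lay far above every hepatectomised one, while hepatectomised replicate 2, at 5 counts, was within the control range. The log2 fold change was 9.07 ± 0.48 (SE) in depleted and 2.39 ± 0.59 (SE) in hepatectomised livers against control, and 6.68 ± 0.56 (SE) between depleted and hepatectomised livers.

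Camp (chromosome 9, 109847379 to 109849617), the gene of the antimicrobial peptide cathelicidin, was all but absent from controls, with 1 count in replicate 4 and 0 in the others. Depleted livers had 6.75, 3.94, 8.73 and 8.04 CPM. Hepatectomised livers had 2, 1 and 7 counts, or 0.0588, 0.0281 and 0.175 CPM. Pooled over each group, depleted livers held 1352 counts and hepatectomised livers 10. The pooled ratio of depleted to hepatectomised livers was 76.7 (95% exact interval 41.6 to 160). It was 1682 (301 to 66486) for depleted to control livers and 21.9 (3.12 to 952) for hepatectomised to control livers, both wide because of the single control count. The log2 fold change after hepatectomy was 3.72 ± 0.90 (SE), from 2.54 without hepatectomised replicate 3 to 4.94 without control replicate 4. Between depleted and hepatectomised livers it was 6.18 ± 0.62 (SE), from 5.15 without depleted replicate 3 to 7.42 without hepatectomised replicate 3.

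Ltf (chromosome 9, 111019271 to 111042767), which encodes the iron-binding protein lactoferrin, had 27.9, 15.1, 29.7 and 17.8 CPM in depleted livers and 0.353, 0 and 0.200 CPM after hepatectomy. Controls had 0 to 0.517 CPM (median 0.0124), and the top value came from control replicate 4, which held 23 of the group's 26 counts. Hepatectomised livers overlapped the controls, and depleted livers overlapped neither group. The log2 fold change of depleted against control livers was 7.73 ± 0.90 (SE), or 10.3 without control replicate 4. For hepatectomised against control livers it was 0.93 ± 1.21 (SE), or 3.34 without that replicate and -0.02 without hepatectomised replicate 1.

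Set against calprotectin, specific granule transcripts were relatively scarce after hepatectomy. Ngp reads per S100a8 read were 0.615 to 1.08 in depleted livers (0.829 ± 0.193, SD, n = 4) and 0.0272 to 0.144 in hepatectomised livers (0.0811 ± 0.0588, SD, n = 3). Ltf reads per S100a8 read were 0.256 to 0.568 against 0 to 0.05. Neither ratio overlapped between the groups. S100a8 itself had 160 to 304 counts in each hepatectomised library, so the ratios there rest on few Ngp and Ltf counts (5 to 23 and 0 to 12).

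Among the azurophil genes, Prtn3 stood apart from the others. Prtn3 (chromosome 10, 79874476 to 79883174, plus strand), which encodes the serine protease proteinase 3, had 0 to 0.395 CPM in controls (median 0.195). Depleted livers had 11.3, 4.03, 13.5 and 40.7 CPM, and hepatectomised livers 65.3, 57.8 and 13.4 CPM. Both treated groups lay above every control and overlapped each other. The log2 fold change against control was 6.71 ± 0.79 (SE) in depleted and 7.55 ± 0.81 (SE) in hepatectomised livers, and the difference between these groups, -0.85 ± 0.89 (SE), was smaller than its error. With 1 liver left out at a time that difference ran from -1.82 without hepatectomised replicate 3 to -0.02 without depleted replicate 3, and was -1.64 without depleted replicate 4. Prtn3 was the single gene of the 8 fitted with a lower estimate in depleted than in hepatectomised livers, and in females alone the estimate changed sign, to 0.45.

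Elane lies next to Prtn3 (chromosome 10, 79886312 to 79888216) and encodes neutrophil elastase, the closest relative of proteinase 3 in this set. It stayed near the floor, with 0 to 5 counts in each control, 15, 14, 27 and 45 counts in depleted livers and 21, 3 and 3 counts after hepatectomy. Depleted livers lay at 0.314 to 1.00 CPM, above all controls (0 to 0.124 CPM), whereas hepatectomised replicates 2 and 3 were within the control range. The log2 fold changes against control were 2.97 ± 0.82 (SE) in depleted and 1.68 ± 0.94 (SE) in hepatectomised livers, the latter 0.17 without hepatectomised replicate 1. There were 2.46 to 7.78 Elane reads per 100 Prtn3 reads in depleted livers and 0.146 to 0.945 after hepatectomy.

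Mpo (chromosome 11, 87793581 to 87804413), the gene of myeloperoxidase, had 0 to 4 counts in controls, 9, 4, 26 and 96 counts in depleted livers and 2, 0 and 7 counts after hepatectomy. Depleted replicate 4 alone held 96 of the 135 counts of its group. The pooled ratio of depleted to control livers was 28.0 (95% exact interval 12.5 to 77.6), from 135 and 6 counts. Ctsg (chromosome 14, 56099881 to 56102574), which encodes cathepsin G, had 3 counts in the 6 controls together, 5, 18, 5 and 20 counts in depleted livers and 6, 0 and 0 counts after hepatectomy. Its pooled ratio of depleted to control livers was 19.9 (6.42 to 99.9), and for hepatectomised livers the interval of the ratio, 0.937 to 27.1, included 1. These intervals cover counting error and not the spread between livers.

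**Figure D3:**
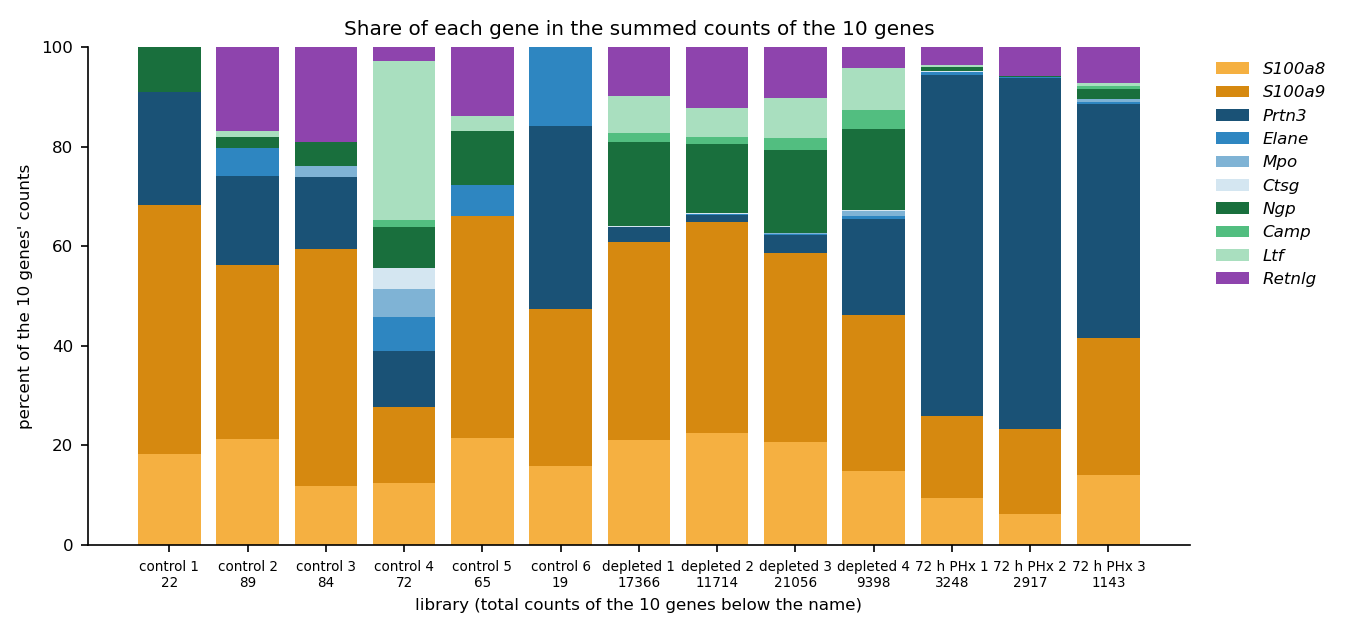
Share of each gene (percent, y axis) in the summed counts of the 10 genes, 1 bar per library, with that sum below its name. Prtn3 (dark blue) makes up 47.0% to 70.6% of the bar in hepatectomised livers and 1.54% to 19.4% in depleted livers, and control bars rest on 19 to 89 counts.

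Prtn3 took 68.4% of the summed counts of the 10 genes in hepatectomised replicate 1 (95% exact interval 66.8 to 70.0), 70.6% in replicate 2 (68.9 to 72.2) and 47.0% in replicate 3 (44.1 to 49.9). In depleted replicates 1, 2 and 3 it took 3.03%, 1.54% and 3.66%, and in replicate 4 19.4% (18.6 to 20.3). The sum itself was 209 to 372 CPM in depleted livers, 28.5 to 95.5 CPM after hepatectomy and 0.570 to 2.20 CPM in controls.

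Per kilobase of gene length, the scale on which genes can be compared, depleted livers ranked S100a9 first at 222 ± 71.6 CPM per kilobase (SD, n = 4), above every value of S100a8 (87.9 ± 31.1). Retnlg (47.3 ± 22.2) and Ngp (39.8 ± 12.9) followed, and neighbours from S100a8 to Ngp overlapped in range. Prtn3, Camp and Ltf came next at 10.03 ± 9.28, 9.06 ± 2.79 and 6.55 ± 2.11, also overlapping. Elane, Ctsg and Mpo were last, at or below 1.09 in every depleted liver. After hepatectomy the order began with Prtn3 (26.3 ± 16.2, SD, n = 3) and S100a9 (24.0 ± 7.91), which overlapped, then S100a8 (8.69 ± 3.72) and Retnlg (5.66 ± 2.24), and all other genes were at or below 0.671. In controls all 10 genes were at or below 1.81 and each overlapped the next.

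Depleted replicate 4 differed from the other 3 depleted livers in the mixture of these transcripts. It had the lowest S100a8, S100a9, Ngp and Retnlg and the highest Prtn3, Elane, Mpo and Ctsg of its group. Without it, mean S100a8 was 70.9 ± 10.4 CPM (SD, n = 3) and not 61.0 ± 21.6 (SD, n = 4), and mean Prtn3 was 9.59 ± 4.94 and not 17.4 ± 16.1 CPM. Mean Mpo was 0.246 ± 0.188 and not 0.719 ± 0.959 CPM, and mean Elane 0.369 ± 0.0891 and not 0.527 ± 0.325 CPM. The means without it were 133 ± 19.4 CPM for S100a9, 35.4 ± 2.86 for Retnlg, 53.6 ± 15.0 for Ngp, 24.2 ± 7.97 for Ltf, 6.47 ± 2.41 for Camp and 0.199 ± 0.177 for Ctsg. The log2 fold change against control was then 5.8 for Prtn3 and 2.43 for Elane, and 7.68 to 9.83 for the other 6 genes fitted. Of the gene lists described further on, 17 receptor and 23 other granule genes were called without it, and 17 and 24 with it. The stellate marker signal of this library, given above, was the highest of the group, and its part in these values was not tested.

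The position of the genes allowed a look at their neighbours. The gene before Prtn3, Plppr3, lies on the other strand and overlaps its first annotated exon, which belongs to a non-coding transcript that starts at 79874476, whereas the main coding transcript starts at 79879614. Plppr3 held 25, 84 and 49 counts in the 3 groups against 48, 3304 and 4819 for Prtn3. It rose in depleted livers (log2 fold change 1.99 ± 0.51 SE, edgeR adjusted p = 0.00875) and after hepatectomy (2.10 ± 0.55 SE, adjusted p = 0.0340), calls that were lost without depleted replicate 3 (adjusted p = 0.0936) for the first, and for the second without hepatectomised replicate 2 (0.0962) or 3 (0.204) or control replicate 1, 2, 5 or 6 (0.0563 to 0.0746), and with the replicate block (0.0844). Cfd, the gene after Elane, had 8 counts in controls, 1 in depleted livers and 0 after hepatectomy. On chromosome 9, the genes beside Ngp (Ptpn23 and Klhl18) and the one before Camp (Nme6) were not called in either comparison with control, at log2 fold changes of -0.52 to 0.35. Ccrl2, a chemokine-binding receptor gene after Ltf, rose in depleted livers (2.01 ± 0.35 SE, edgeR adjusted p = 7.91e-04) and was not called after hepatectomy. Cdc25a, a cell cycle phosphatase gene after Camp, rose after hepatectomy (0.97 ± 0.22 SE, edgeR adjusted p = 0.0176, and 0.0971 without hepatectomised replicate 2, 0.0523 with scaling by library size and 0.104 with the replicate block). Tspoap1, the gene before Mpo, rose in depleted livers (1.80 ± 0.49 SE, edgeR adjusted p = 0.0126, and 0.116 without depleted replicate 3). Rtp3, before Ltf, and Dzip3, after Retnlg, were called in neither comparison with control. The remaining neighbours were too low to test. Mcpt8, a basophil protease gene beside Ctsg, had 4, 50 and 2 counts in control, depleted and hepatectomised livers. Depleted replicate 4 held 48 of the 50, and 2 depleted livers had 0. Gzme, on the other side of Ctsg, had 0, 6 and 0 counts. Pglyrp4 beside S100a9 had 0, 1 and 0 counts, Retnla before Retnlg 17, 5 and 14, and Lpo after Mpo 0 in every liver.

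Sex was not used to choose the genes, so it could be tested. None of the 8 fitted genes differed between male and female livers by edgeR's quasi-likelihood test, where 1.03% of all tested genes did. Log2 differences (male minus female) ran from -0.47 to 0.76, with adjusted p-values of 0.692 to 0.879. None passed an unadjusted p of 0.05 and DESeq2 called none either.

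Other genes of the neutrophil programme, which are not members of the set, were tested with adjustment over all genes. The lists were written with earlier results of these data known. Of 28 further granule and cytosol genes, 25 passed the filter and 24 of these rose in depleted livers, against 18.9% of all tested genes. The list's median log2 fold change was 5.21 (4.61 with genes at 0 in controls set to their lower bound), against -0.03 over all genes. After hepatectomy 7 of the 25 rose (28%, with 6.06% of all genes), with a median of 1.68, and 4 rose without hepatectomised replicate 3. Between depleted and hepatectomised livers, 17 of the 25 were higher in depleted livers and none lower.

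Among the more abundant genes of this list (mean log2 CPM of at least 0), the largest rises in depleted livers were those of Chil3, a chitinase-like protein also made by macrophages, at 9.82 ± 0.54 (log2, SE), and Lcn2, a siderophore-binding lipocalin also made by hepatocytes, at 7.18 ± 0.53. Mmp9, the gelatinase of tertiary granules, rose by 4.54 ± 0.65 (edgeR adjusted p = 2.35e-04), and Ifitm6, of the interferon-induced transmembrane protein family, by 3.99 ± 0.46. Mmp8, the collagenase of specific granules, fell short of that abundance (mean log2 CPM -0.14) and rose by 8.70 ± 0.76 (edgeR adjusted p = 9.90e-06). After hepatectomy Lcn2 rose by 7.73 ± 0.56, from 7.38 to 1854 CPM, and its mean, like that of Prtn3, was higher there than in depleted livers (999 CPM), with overlapping ranges. Chil3 rose to 1.72 CPM, by 3.28 ± 0.57 (adjusted p = 0.00567), against 128 CPM in depleted livers. Wfdc21 rose by 1.11 ± 0.23 (adjusted p = 0.0119, and 0.0660 without hepatectomised replicate 3). Serpinb1a, the cytosolic inhibitor of the granule proteases, was the single tested gene of the list not called in depleted livers, at -0.11 ± 0.46.

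Of 20 neutrophil surface receptor genes, 18 were tested, and 17 rose in depleted livers, with a median log2 fold change of 4.13. Fpr2, a formyl peptide receptor, rose by 4.44 ± 0.44. Itgam, the integrin CD11b shared with macrophages, rose by 3.50 ± 0.38, and Csf3r, the receptor for the neutrophil growth factor G-CSF, by 3.50 ± 0.37 (edgeR adjusted p = 2.52e-05). After hepatectomy 6 of 18 rose, with a median of 0.89, and 3 of 18 with the replicate number as a block. They included Cxcr2, the main chemokine receptor of neutrophils, at 4.03 ± 0.64 (adjusted p = 0.00380), which rose in depleted livers by 6.27 ± 0.64. Between the treated groups 15 of 18 were higher in depleted livers, and 9 without depleted replicate 3.

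**Figure D4:**
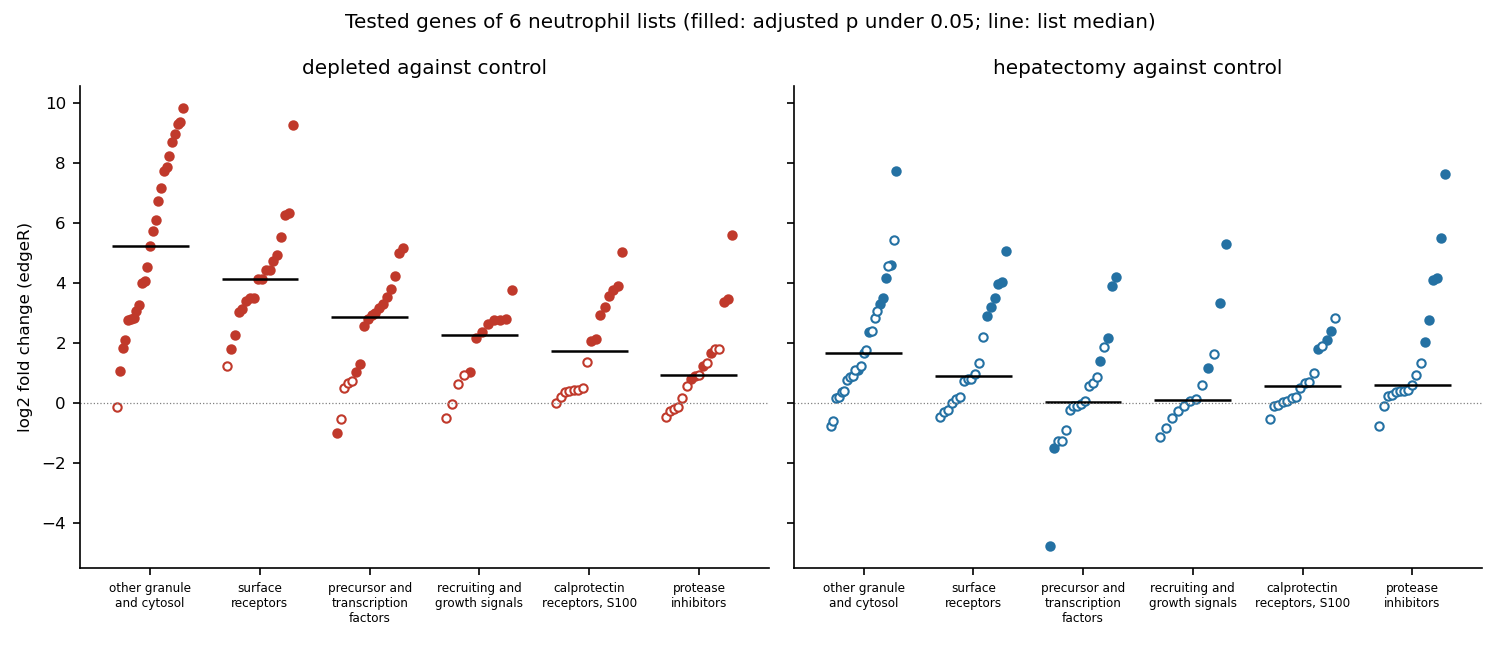
Log2 fold change (y axis) of each tested gene of 6 lists in depleted livers (left) and in livers at 72 h after hepatectomy (right) against the same controls, filled where the adjusted p was below 0.05, with a line at the list median; values of genes with 0 counts in a group depend on the prior count. Nearly all granule and receptor genes are filled on the left (24 of 25 and 17 of 18), and 7 of 25 and 6 of 18 on the right.

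Among 18 tested genes of granulocyte precursors and their transcription factors, 13 rose and 1 fell in depleted livers (median 2.87). Of all tested genes, 18.9% rose and 15% fell there. The genes not called were Cebpe (-0.51 ± 0.39), Kit (0.66 ± 0.48), Cd34 (0.75 ± 0.36) and Cd63 (0.49 ± 0.36). Runx1, a haematopoietic transcription factor, rose by 3.30 ± 0.52 and Irf8, a factor of monocytes and dendritic cells, by 3.52 ± 0.33. Nkg7, a cytotoxic granule gene of T and NK cells placed in the list, rose by 4.99 ± 0.55, and Top2a, a gene of dividing cells, by 2.94 ± 0.75. Cebpa, a factor of hepatocytes as well as of myeloid precursors, fell by 1.00 ± 0.21 on the log2 scale, from 358 to 177 CPM. Ms4a3, which marks granulocyte and monocyte progenitors and stands in the granule list, had 0 counts in controls and 0.306 CPM in depleted livers, at least 24.5-fold above the floor.

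After hepatectomy 4 of these 18 rose (6.06% of all tested genes rose) and 2 fell (2.36% of all tested genes fell). Without hepatectomised replicate 2, 3 of 18 were called. Top2a (4.2 ± 0.91), Mki67 (3.90 ± 0.92) and Cebpb (2.18 ± 0.24), the last a C/EBP factor of the acute phase, rose, as did Cd34 (1.41 ± 0.38, edgeR adjusted p = 0.0359, and 0.245 without hepatectomised replicate 3, 0.0929 without replicate 1, 0.0527 without depleted replicate 1 and 0.0564 to 0.0718 without control replicate 3, 4 or 5, and 0.150 with the replicate block). Without hepatectomised replicate 2 the adjusted p was 0.0670 for Top2a and 0.0973 for Mki67, and without control replicate 1 it was 0.0670 for Mki67. Cebpa fell by 1.5 ± 0.23 on the log2 scale. Gfi1, a repressor needed for granulocyte maturation and named for being the other gene that fell, had 0 counts in all 3 hepatectomised livers, at least 2.74-fold lower than controls (edgeR adjusted p = 0.0374, and 0.0568 to 0.107 when hepatectomised replicate 1, 2 or 3, control replicate 1, 2 or 6 or depleted replicate 3 was left out, and 0.130 with the replicate block). In depleted livers Gfi1 rose by 3.80 ± 0.48.

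Of 20 genes for signals that recruit or expand neutrophils, 12 could be tested. Of these, 8 rose in depleted livers (median 2.27) and 3 after hepatectomy (median 0.12), the latter 1 without hepatectomised replicate 2 and 1 with the replicate block. Cxcl1, a ligand of Cxcr2, rose in depleted livers by 2.76 ± 0.50, from 5.64 to 34.8 CPM, and after hepatectomy by 5.31 ± 0.54, to 214 CPM (edgeR adjusted p = 0.00120 and 2.77e-04). Il1b, the gene of interleukin-1β, and Selp, that of the endothelial adhesion protein P-selectin, rose in depleted livers by 2.62 ± 0.46 and 2.38 ± 0.27. Icam1, an adhesion ligand of neutrophil integrins, rose by 2.17 ± 0.23 in depleted livers and by 1.16 ± 0.25 after hepatectomy (adjusted p = 0.0147, and 0.0647 with the replicate block, 0.0881 without hepatectomised replicate 2 and 0.0508 without replicate 3). Csf3, which encodes G-CSF, was too low to test, at 0 CPM in controls, 0.00437 in depleted and 0.0437 in hepatectomised livers.

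Of 16 tested genes for calprotectin receptors and other S100 proteins, 8 rose in depleted livers (median 1.72) and 3 after hepatectomy (median 0.59; DESeq2 called 5). Cd14, the co-receptor through which calprotectin and lipopolysaccharide reach Tlr4, rose by 3.21 ± 0.42 and by 2.09 ± 0.44 (edgeR adjusted p = 0.0134 after hepatectomy, and 0.0723 without hepatectomised replicate 2 and 0.0650 without replicate 3). S100a6 rose by 3.77 ± 0.34 and 2.40 ± 0.35, and S100a11 by 2.15 ± 0.29 and 1.80 ± 0.30. Cd33, a siglec of myeloid cells, rose in depleted livers by 2.93 ± 0.56. S100a7a, the gene before S100a8 on chromosome 3, had 0 counts in all 13 livers.

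Among 17 genes for inhibitors of granule proteases, 7 rose in depleted livers (median 0.94) and 6 after hepatectomy (median 0.62). Slpi, the secretory inhibitor of elastase, rose by 3.35 ± 0.75 and 4.16 ± 0.75, and Serpina3n, a serpin of the acute phase that inhibits cathepsin G, by 1.68 ± 0.21 and 2.76 ± 0.23. Serpina3g rose in depleted livers by 5.58 ± 0.46 and Serpinb6b by 3.47 ± 0.27, and Itih4 rose after hepatectomy by 2.02 ± 0.22. A2m, the gene of α2-macroglobulin, a plasma inhibitor of many proteases, stood at 48.6 ± 41.2 CPM (SD, n = 3, from 2.29 to 81.0) after hepatectomy against means of 0.165 in controls and 0.191 in depleted livers. Its log2 fold change after hepatectomy was 7.63 ± 0.99 (SE), and 8.98 without hepatectomised replicate 3. Between the treated groups, 3 of the 17 were higher and 5 lower in depleted livers (13.3% and 10.1% of all tested genes). The 8 calls became 5 without depleted replicate 3 and 5 without hepatectomised replicate 3. The 5 Serpina1 genes of α1-antitrypsin, the main plasma inhibitor of elastase, were called in neither comparison, and their near-identical copies leave the division of reads among them uncertain.

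Markers of several other cell types were also higher in depleted livers. Summed monocyte markers (8 genes) were 604 to 992 CPM there against 23.9 to 240 CPM in controls, with 6 of 8 called higher. Most of that sum was Csf1r, a receptor gene that macrophages share, at 709 against 90.8 CPM on average. Summed T and NK cell markers were 32.6 to 78.1 against 2.38 to 4.35 CPM, with 6 of 6 called higher. B and plasma cell markers were 37.8 to 54.9 against 3.96 to 6.67 CPM. Kupffer cell and macrophage markers were 773 to 1461 against 67.9 to 567 CPM, with 4 of 8 called higher. The members of that list diverged: Marco, a scavenger receptor of macrophages, averaged 297 against 11.4 CPM, whereas the Kupffer cell lectin gene Clec4f averaged 18.8 against 111 CPM (edgeR adjusted p = 0.0872). Clec4f was 0.236, 2.17 and 3.44 CPM in depleted replicates 1 to 3 and 69.5 CPM in replicate 4, and its mean without that library was 1.95 CPM. Vsig4 averaged 20.1 against 35.2 CPM (edgeR adjusted p = 0.287). After hepatectomy no T and NK, Kupffer or erythroid marker was called, 2 of 8 monocyte markers were called higher and 1 of 5 B cell markers lower. The part of these cells in the levels of the 10 genes was not tested.

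Markers of other granulocytes differed among themselves. Epx, the eosinophil peroxidase, had 0 counts in all 3 groups and Ear1 0 counts in controls and depleted livers, while the summed eosinophil list was 19.0 to 37.7 CPM in depleted livers against 0.300 to 3.90 CPM in controls, mostly from Ear2 (mean 28.9 against 2.53 CPM), which macrophages also make. Of 3 eosinophil markers tested, 2 were called higher in depleted livers, Ear2 and the chemokine receptor gene Ccr3, which averaged 0.929 against 0.188 CPM in controls. The 8 mast cell and basophil markers summed to 0 to 0.0988 CPM in controls, 0.0448 to 1.65 CPM in depleted and 0 to 0.150 CPM in hepatectomised livers. The value of 1.65 CPM was that of depleted replicate 4, and the next highest was 0.314 CPM. Hepatocyte markers (6 genes) summed to 76401 to 143937 CPM in controls, 65145 to 163783 CPM in depleted livers and 118239 to 177409 CPM after hepatectomy, overlapping ranges. Of the 6, the cytochrome gene Cyp2e1 was called lower in depleted livers, at 1117 against 10635 CPM.

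**Figure D5:**
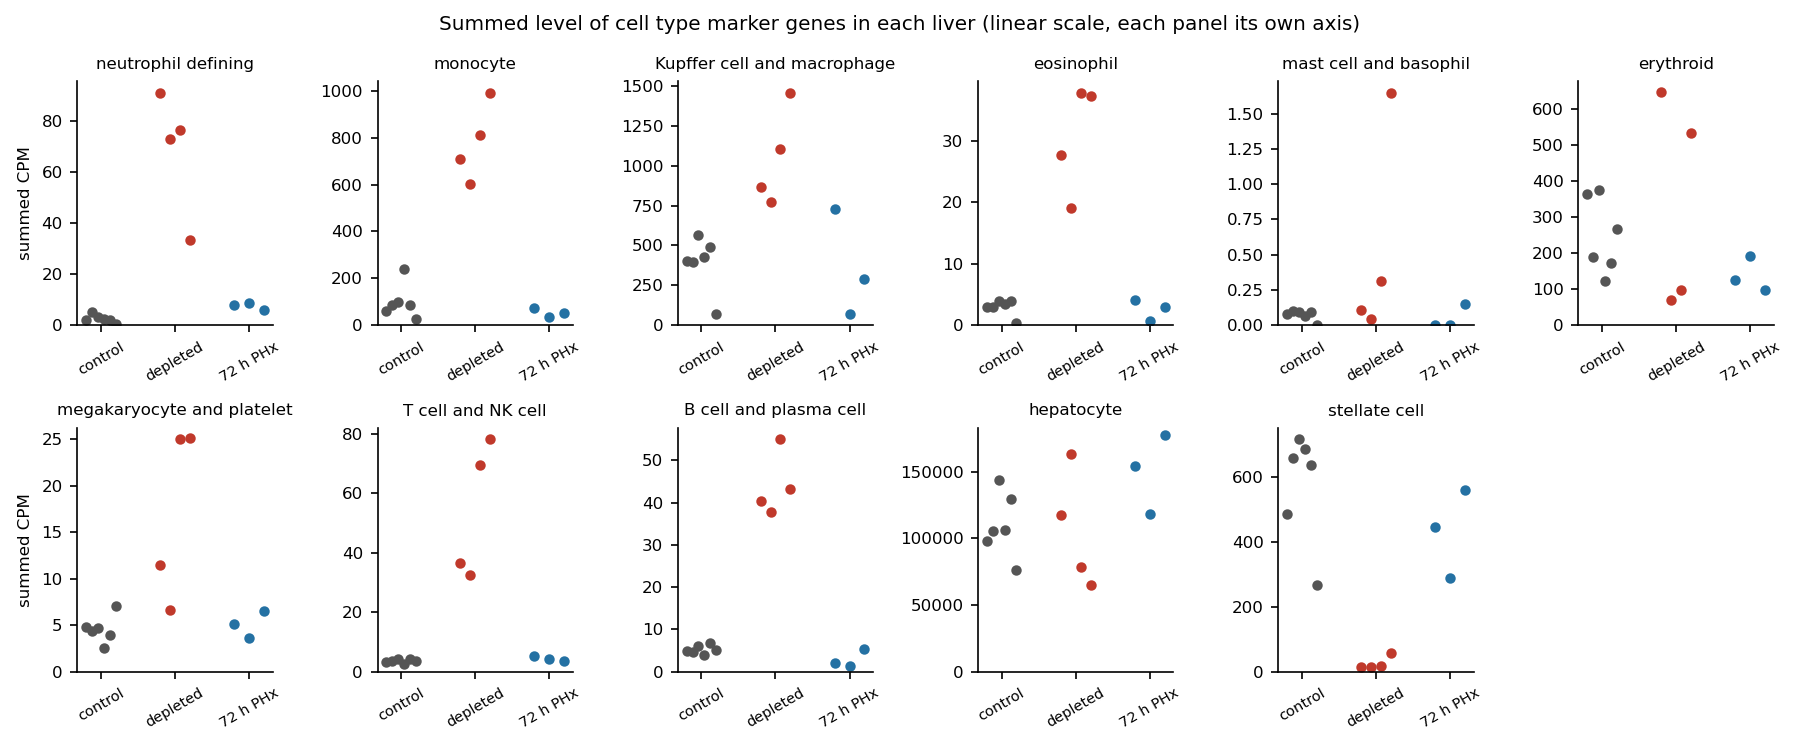
Summed CPM of marker genes (y axis, linear, from 0) for 11 cell types, 1 point per liver; 72 h PHx is the hepatectomised group. Neutrophil markers are highest in depleted livers (33.6 to 91.1 CPM), as are monocyte, lymphocyte and B cell markers, and are 5.84 to 8.81 CPM after hepatectomy.

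The genes with the most similar pattern over the 13 livers were found by Pearson's r of log2 CPM, a description that the differences between groups largely set. For S100a8 they were Tnfaip3 (r = 0.98), an inhibitor of NF-κB signalling, Irak3 (0.98), a brake on Toll-like receptor signalling, and Cxcr2 (0.98). For Camp they were Cd8a, Napsa and Apobec3 (each 0.98), which were high in depleted livers alone, as with Cd8a at 8.20 to 18.0 CPM there, 0.0536 to 0.247 in controls and 0.168 to 0.294 after hepatectomy. For Prtn3 they were Cyb561 (0.97), Hpx (0.97), which encodes the plasma haem-binding protein hemopexin made by hepatocytes, and Lcn2 (0.97). Hpx was 2705 to 5334 CPM in controls, 8149 to 13657 in depleted and 12244 to 27877 in hepatectomised livers. For Mpo they were Pold4 (0.95), Car9 (0.93) and Oas1g (0.93). With a prior count of 0.5 in place of 2, the 3 genes nearest to Prtn3 were kept, and 6 of the 12 in all. Only Napsa was kept for Camp. None was kept for Mpo, whose nearest genes became Ctsb, Ifngr2 and Lpl. Mpo did not pass the low-count filter and had 0 to 4 counts in each control.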

How the data were processed

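Per the labels' protocols, stranded TruSeq mRNA libraries were made from 500 ng of TRIzol-extracted total RNA of whole liver. The authors deposited raw read counts per gene for 13 libraries. The submitters' processing notes name STAR 2.7.1a, SAMtools 1.15.1, featureCounts 1.6.4 and mm10. The counting's strand setting and its treatment of reads that map to several genes are not given in the sources used here, so genes with close copies (Stfa, Serpina1, Serpina3) are uncertain. A gene length column was deposited per the file header. Symbols were matched for 21741 of 22048 gene IDs.

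Counts were tested with edgeR 4.0.16 in R 4.3.3 (filterByExpr, TMM, robust glmQLFit, glmQLFTest) with group and sex over all 13 libraries, Benjamini-Hochberg adjustment over 13831 genes and a threshold of 0.05, two-sided. The script was tested on simulated counts. CPM is TMM-scaled, with 2 as the prior count on the log2 scale. Any fold against a group at 0 used a floor of 3 counts over that group.

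The 10 genes and all lists were chosen with earlier results of these data known. The text names all 10 genes, up to 4 called genes per list, direction and comparison with control (mean log2 CPM of at least 0), the adjacent genes and the 3 genes most like S100a8, Prtn3, Camp and Mpo. One gene that this rule names is not reported here. Chosen after their values were seen were Mmp8, Cxcr2, Serpinb1a, Ms4a3, Gfi1, Csf3, A2m, Ear2, Epx, Ear1, Csf1r, Marco, Clec4f, Vsig4, Ccr3 and Cyp2e1. Cebpe, Kit, Cd34 and Cd63 in depleted livers, and Ctsb, Ifngr2 and Lpl, were also named after their values were seen. No 2 libraries of a group agreed within counting noise (lowest median chi-square per gene 4.60, against 0.455 for counting noise alone), so none was treated as deposited more than once. This does not show that they come from separate animals. The labels number the replicates of each group. Same-numbered control and hepatectomised livers correlated in their deviations from the group means at 0.107, 0.229 and 0.523, each over 0.1, so results with the replicate block are given beside that comparison where the block changed a call. These 3 pairs share a sex, and with sex removed 0 of 3 exceeded 0.1. In the other 2 comparisons 0 of 4 (control and depleted) and 0 of 3 pairs (depleted and hepatectomised) exceeded 0.1, and 1 and 2 did with sex removed. Alternatives were other scalings, no filter, no sex term, DESeq2 1.42.0, females only, a replicate block and each library left out.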

Additional observations from a re-analysis of the deposited data

Results flagged for a closer look

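The highest or lowest liver of each control and depleted group was compared with its nearest neighbour, as a share of the group's range, for the 10 genes. Of 20 groups, 3 passed Dixon's critical value at the 95% level. All 3 had control replicate 4 as the highest control: Ltf at 0.517 CPM with the next control at 0.0468 (gap 0.909 of the range), and Ctsg at 0.0674 CPM and Camp at 0.0225 CPM, each with every other control at 0 (gap 1 of the range). Ctsg and Camp rest on 3 counts and 1 count, and with 5 of 6 controls at 0 any count in the sixth gives a gap of 1, so these say nothing beyond those counts. The usual chance rate of about 1 in 20 does not hold for genes at so few counts.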

How the results depend on the processing

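No result changed direction with its call under any alternative run. For hepatectomised against control livers, 2192 genes were called with library size scaling, 1939 by DESeq2, 90 in females only and 632 with the replicate block, against 1164. Depleted against control livers gave 2726 calls in females only against 4692, and depleted against hepatectomised livers 1263 against 3236. Male against female gave 410 by DESeq2 and 72 with the block against 142, and could not be run in females only. Females only leaves 1 hepatectomised liver, assumed to vary like the others.

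In females only, hepatectomised against control livers gave 2 calls among granule genes, 0 among receptors, 2 among precursor genes and 1 each among signals and S100 and receptor genes, with 0 among inhibitors. Depleted against control livers gave 9 among precursor genes. Depleted against hepatectomised livers gave 11 among granule genes, 4 among signals, 1 among S100 and receptor genes and 3 among inhibitors. DESeq2 called 5 S100 and receptor genes after hepatectomy. With a prior count of 0.5, 6 of the 12 most similar genes were kept. The cause of these changes was not tested.

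Leaving out each liver in turn gave 2960 to 4928 genes for depleted against control livers, 483 to 1458 for hepatectomised against control livers, 1709 to 3850 for depleted against hepatectomised livers and 84 to 269 for sex. For hepatectomised against control livers the lists ranged over 4 to 8 (granule), 3 to 6 (precursor) and 1 to 4 (signals). For depleted against hepatectomised livers they ranged over 9 to 16 (receptors), 5 to 10 (precursor), 2 to 8 (signals), 2 to 7 (S100 and receptor genes) and 5 to 9 (inhibitors).

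Of 10 same-numbered pairs of livers, 3 deviated together with a correlation above 0.1, and these were the 3 pairs of control and hepatectomised livers, which share a sex. In the other 2 comparisons (4 and 3 pairs) the correlations ran from -0.35 to 0.07. The main fit took the numbers as pairs in no comparison. Results with the replicate block are an alternative, given beside the comparison of hepatectomised and control livers. With sex removed, which the main fit holds as a term, 0 of those 3 pairs exceeded 0.1. With the replicate block, 3887 genes were called for depleted against control, 632 for hepatectomised against control, 3170 for depleted against hepatectomised livers and 72 for sex. Receptor calls after hepatectomy came to 3 and signal calls to 1 with the block, and calls of named genes after hepatectomy that it ended are given beside those genes.

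Depth limits Mpo, Ctsg and Elane in every group and Camp, Ltf and Ngp outside depleted livers, where single libraries held 0 to 23 counts of the last 3.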
